A study of Homo sapiens with 6 samples.

Results

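Autophagy, mitophagy and lysosome genes were read in HK-2 cells under oxidized low-density lipoprotein (OX-LDL). They are 36 genes that build, load and degrade autophagosomes, taken by their symbols from a table of 58825 genes. By role they comprised 5 initiation genes, 4 genes of phagophore lipid supply and PI3P binding, 6 conjugation genes, 5 genes of the ATG8 family, 6 receptors, 8 lysosomal genes and 2 transcription factors. RNA-seq had been run on 3 untreated Control libraries and on 3 libraries of cells given OX-LDL at 25 μg/ml for 48 h. The labels give no time for the Control cells. HK-2 is an immortalized line derived from human proximal tubule epithelium, and all 6 libraries come from this line. The study's methods put the cells in low-serum medium before OX-LDL and say that its cell experiments were repeated independently. They do not tie the sequenced libraries to those repeats, so the p-values measure only the spread between these libraries, which may be technical.

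In macroautophagy, the ULK1 kinase complex and a class III PI3-kinase complex containing beclin 1 start a cup-shaped membrane, the phagophore. Ubiquitin-like conjugation then attaches ATG8 proteins (the LC3 and GABARAP families) to lipid on that membrane, and receptors such as p62 tie cargo to them. The closed vesicle fuses with the lysosome, whose cathepsins and glycosidases digest the content. TFEB and TFE3 are transcription factors known to act on many lysosomal genes, and proximal tubule cells rely on this pathway because they take up and degrade large amounts of filtered material.

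The libraries held 62561347 to 76797607 estimated counts, and mitochondrial genes took between 5.25 and 5.69% of them. The deposited counts run at about 4 per read pair, so that 12 counts stand for 3 pairs. Of the markers of proximal tubule, LRP2 (megalin) had 0 counts in all 6 libraries, and CUBN, SLC34A1, AQP1 and ANPEP reached at most 46 counts in any library. GGT1, a brush-border enzyme, was expressed and stands on 2 rows of the table, at means of 8.41 and 13.6 FPKM in Control and 16.6 and 0.0327 FPKM in OX-LDL. Its counts were divided differently between the rows from library to library. The epithelial genes PAX8, KRT8, KRT18 and EPCAM were all above 10 FPKM (fragments scaled for transcript length and library size) in every library, whereas CDH1 (E-cadherin) had at most 73 counts, with means of 0.0968 FPKM in Control and 0.106 in OX-LDL. PAX8 fell by 1.23 on the log2 scale (edgeR adjusted p = 0.0182) and KRT8 rose by 0.83 (0.0116). Of 8 leukocyte markers, 5 were at 12 counts or fewer in every library and PTPRC (CD45) had at most 8 counts. The summed leukocyte markers were 3.15 to 7.82 FPKM in Control and 9.23 to 14.1 FPKM in OX-LDL, nearly all of it from CD68, a protein of the lysosomal membrane (adjusted p = 0.0858, not called). Its part in the results on lysosomal genes was not tested. In bulk RNA, fewer cells expressing a gene and less RNA per cell cannot be told apart.

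Of the 36 genes, 34 passed a minimum mean of 0.1 FPKM and were tested together with all other such genes by edgeR. MAP1LC3A, which encodes LC3A, had 0 counts in all 6 libraries. The kinase gene ULK2 had 19, 12 and 47 counts in Control and 45, 30 and 38 in OX-LDL, under the minimum. At an adjusted p under 0.05, 4 genes were higher in OX-LDL (ATG9A, WIPI1, LAMP2 and CTSL) and 4 were lower (ATG3, SQSTM1, MCOLN1 and TFE3). These 8 were 23.5% of the 34, beside 15.3% of the 19510 genes tested in all, of which 7.91% were higher and 7.42% lower. The median log2 fold change of the 34 was -0.03, beside -0.004 for all genes tested, with 15 genes above 0 and 19 below. DESeq2 called 11 of the 34, where it called 22.7% of all genes, and 14 of the 34 had an unadjusted edgeR p under 0.05, as had 30.4% of all genes. None of the 34 differed by more than 2-fold, and the range ran from -0.88 to 0.71 on the log2 scale.

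The called genes lay on either side within the same pathway. Phagophore lipid supply held 2 of the 4 genes that rose and none that fell. Conjugation and receptors held 1 each that fell. The lysosomal genes split into 2 that rose and 1 that fell, 1 of the 2 transcription factors fell, and neither the initiation genes nor the ATG8 family held a call. The medians by role were -0.13 for initiation, 0.21 for lipid supply, -0.16 for conjugation, 0.05 for the ATG8 family, -0.07 for receptors, 0.01 for the lysosome and -0.38 for the transcription factors on the log2 scale. No difference between the roles was tested.

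**Figure D1:**
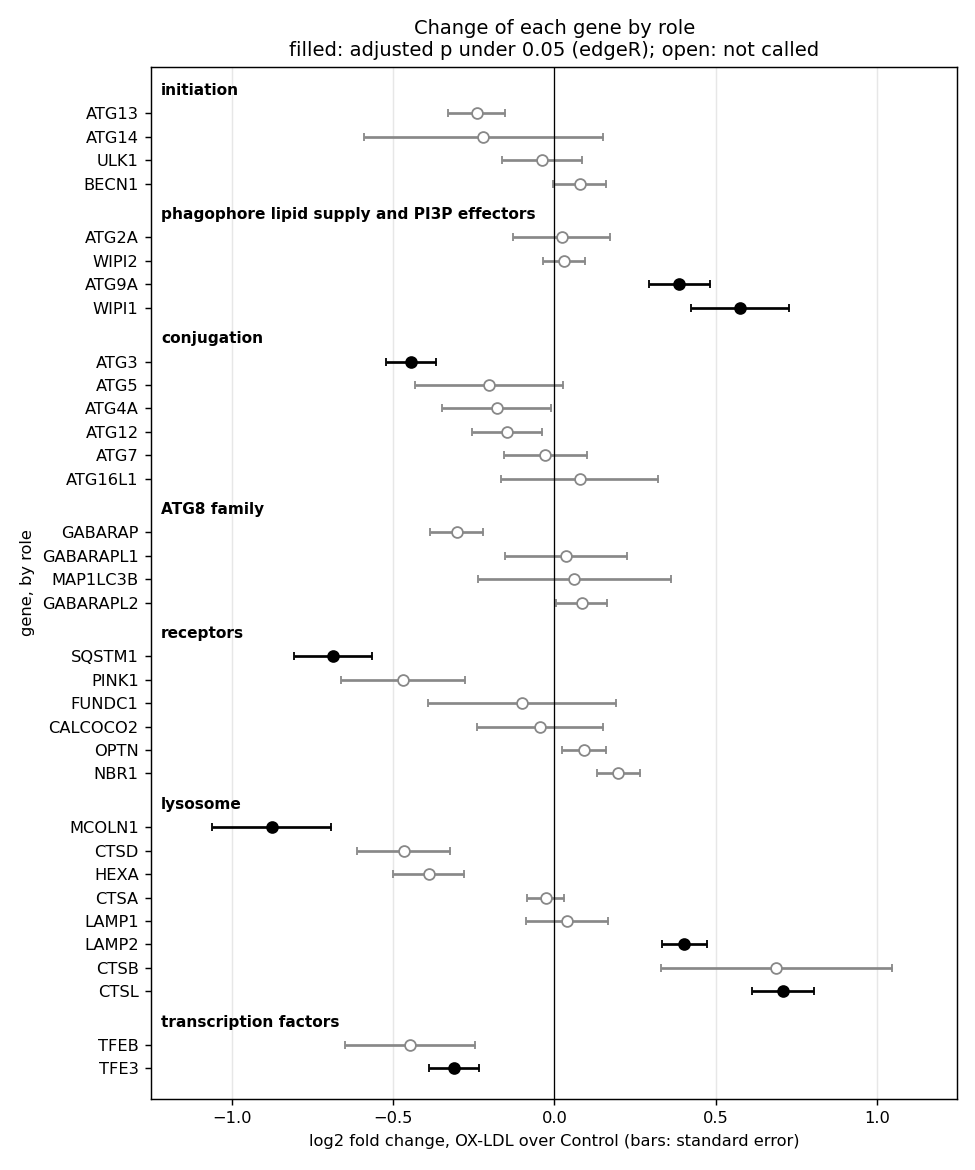
Change of each of the 34 tested genes, grouped by role. The horizontal axis is the log2 fold change of OX-LDL over Control from edgeR, bars are standard errors, and filled points have an adjusted p under 0.05. The filled points lie on both sides of 0, from MCOLN1 at -0.88 to CTSL at 0.71, and the initiation and ATG8 groups hold open points only.

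Motif letters were looked for in RefSeq promoters (GRCh38.p14), windows of 250 bases before to 50 after the start, on both strands. A window was at hand for 31 of the 36 genes, but not for LAMP2, HEXA, CTSB, PINK1 and MAP1LC3A. The CLEAR core TCACGTGA, the palindrome that TFEB and TFE3 bind, was in 4 of the 31 windows (12.9%), beside 1.04% of all 27305 promoters. It lay in the windows of LAMP1, CTSA, MCOLN1 and, after the start only, ATG3. The window of MCOLN1 held 2 cores and that of LAMP1 held 2, and IGF2R, a gene of the wider pathway, held 3. Of 104 windows of genes of the wider pathway, 10 held the core (9.62%), among them NRBF2 and VPS11, which were not called. TFEB and TFE3 are already known to act on many lysosomal genes, so higher shares in these lists are no independent result. Both MCOLN1 cores and 1 each of LAMP1 and IGF2R are shown, because these genes share the letters while MCOLN1 and IGF2R fell and LAMP1 was not called. Capitals mark the CLEAR core, and each is written on the strand of its gene, the plus strand in all 3.
MCOLN1, chr19:7522571-7522600, core beginning 42 bases before the start: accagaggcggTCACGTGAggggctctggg
MCOLN1, chr19:7522598-7522623, core beginning 15 bases before the start: gggctaccgggTCACGTGAccgaggc
LAMP1, chr13:113297199-113297228, core beginning 29 bases before the start: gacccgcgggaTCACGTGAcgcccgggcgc
IGF2R, chr6:159968996-159969025, core beginning 75 bases before the start: gaacaagggagTCACGTGAgcggggggcgg

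Among the 4 genes with the core, of the 31 with a window, MCOLN1 and ATG3 fell, whereas LAMP1 and CTSA were not called, at log2 fold changes of 0.04 and -0.03. The ARE letters TGACNNNGC, read by NRF2, were in 6 of the 31 windows (19.4%) and in 13.6% of all promoters. The forkhead letters GTAAACA were in 2 windows (6.45%), those of CALCOCO2 and CTSL, and in 3.41% of all. The ATF4 letters TGATGNAA were in 0 of the 31 and in 3.67% of all. An ARE match can overlap a CLEAR core where the letters run together. A match is a run of letters in the window and no measurement of binding.

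**Figure D2:**
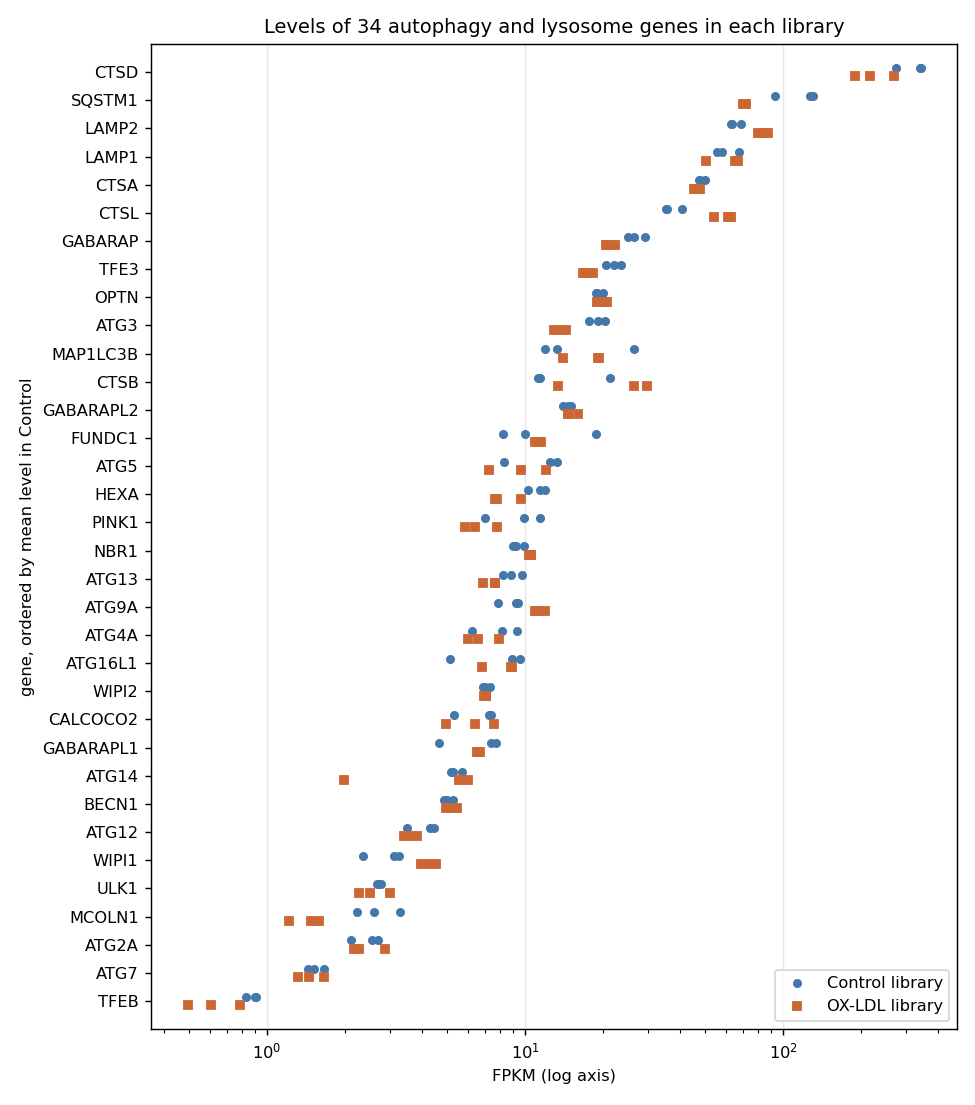
Level of each of the 34 tested genes in every library. The horizontal axis is FPKM on a log scale, circles are the 3 Control libraries, squares the 3 OX-LDL libraries, and genes are ordered by their Control mean. CTSD stands highest in both groups and TFEB lowest, and the single low square of ATG14 and the single high circles of MAP1LC3B and FUNDC1 are each from 1 library.

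Per transcript length, the levels ran over more than 2 orders of magnitude. CTSD, the aspartic protease cathepsin D, was highest with a mean of 319 FPKM in Control, followed by SQSTM1 (117), LAMP2 (65.1), LAMP1 (60.4), CTSA (48.2) and CTSL (37.2). In OX-LDL the order at the top was CTSD (226), LAMP2 (84.2), SQSTM1 (71.0), LAMP1 (60.7) and CTSL (59.4). TFEB was the lowest of the tested genes in both groups, at 0.879 and 0.628 FPKM.

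None of the 4 tested initiation genes was called. ULK1, the kinase that starts the process, was at 2.68, 2.72 and 2.78 FPKM in Control and at 2.28, 3.00 and 2.51 FPKM in OX-LDL. BECN1, encoding the scaffold beclin 1, was at 5.25, 4.85 and 5.00 FPKM in Control and at 5.46, 4.93 and 5.22 FPKM in OX-LDL. For both genes the groups overlapped, and the log2 fold changes were -0.04 (SE 0.12) and 0.08 (SE 0.08).
ATG13, the regulatory partner of ULK1, was at 8.23, 8.82 and 9.72 FPKM in Control and at 7.66, 7.64 and 6.85 FPKM in OX-LDL. All 3 OX-LDL libraries were below all 3 Control libraries, but the difference of -0.24 did not pass the test (edgeR adjusted p = 0.120). ATG14, which brings the PI3-kinase complex to the site of autophagosome formation, had 5.27, 5.68 and 5.17 FPKM in Control and 5.55, 6.005 and 1.99 FPKM in OX-LDL. OX-LDL replicate 3 alone was low, and without it the log2 fold change of ATG14 was 0.13 instead of -0.22, uncalled in both cases.

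ATG9A and WIPI1 were higher in OX-LDL. ATG9A (chr2:219219380-219229717) encodes the lipid scramblase whose vesicles seed the phagophore. Its level was 9.26, 9.36 and 7.86 FPKM in Control and 11.02, 11.91 and 10.97 FPKM in OX-LDL, with no overlap (log2 fold change 0.39, SE 0.09, edgeR adjusted p = 0.0371). WIPI1 (chr17:68420948-68457499) binds PI3P on the forming membrane. It was at 3.26, 3.11 and 2.36 FPKM in Control and at 4.28, 4.51 and 3.96 FPKM in OX-LDL, again with no overlap (0.58, SE 0.15, adjusted p = 0.0480). Both lie close to the threshold: neither was called when any 1 of the 6 libraries was left out, with adjusted p of 0.0604 to 0.0971 for ATG9A and 0.0613 to 0.121 for WIPI1.
Neither of their partners was called. WIPI2, which binds PI3P and recruits ATG16L1, was at 7.05 ± 0.24 FPKM (SD, n = 3) in Control and 7.04 ± 0.07 in OX-LDL. ATG2A, the lipid transfer protein that works with ATG9A, was at 2.46 ± 0.31 FPKM in Control and 2.44 ± 0.37 in OX-LDL. Both were uncalled, at log2 fold changes of 0.03 and 0.02.

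Among the conjugation genes, ATG3 fell. ATG3 (chr3:112532509-112561963) is the E2-like enzyme that joins ATG8 proteins to phosphatidylethanolamine. It was at 17.7, 20.4 and 19.2 FPKM in Control and at 13.7, 13.0 and 14.5 FPKM in OX-LDL, and the groups did not overlap. The fall was 1.36-fold (log2 fold change -0.44, SE 0.08, edgeR adjusted p = 0.0137). Without Control replicate 2 or without OX-LDL replicate 1 it was no longer called, at an adjusted p of up to 0.0572. SLC35A5, on the other strand and overlapping exons of ATG3, was at 7.30 FPKM in Control and 4.88 in OX-LDL, and its part in the ATG3 value was not tested.
The other 5 conjugation genes were not called. ATG7, the E1-like enzyme upstream of ATG3, was at 1.54 ± 0.12 FPKM in Control and 1.48 ± 0.17 in OX-LDL. ATG12, the ubiquitin-like protein of the second conjugate, was at 4.07 ± 0.50 and 3.59 ± 0.21 FPKM. ATG5, to which ATG12 is joined, spread widely: 8.31, 12.5 and 13.4 FPKM in Control and 9.69, 7.24 and 12.04 FPKM in OX-LDL.
ATG16L1, which places the conjugate on the membrane, was low in Control replicate 2 (5.11 FPKM, beside 8.93 and 9.59), with 8.88, 8.81 and 6.79 FPKM in OX-LDL. ATG4A, a protease that trims ATG8 proteins, was at 7.90 ± 1.56 FPKM in Control and 6.82 ± 0.98 in OX-LDL. For these 5 genes the log2 fold changes lay between -0.20 (ATG5) and 0.08 (ATG16L1), and the groups overlapped.

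No gene of the ATG8 family was called. MAP1LC3B, the source of the LC3B protein used as an autophagosome marker, was at 12, 26.3 and 13.3 FPKM in Control and at 19.2, 13.98 and 19.4 FPKM in OX-LDL. Control replicate 2 was far above the other Control libraries, and the log2 fold change was 0.06 with an SE of 0.30. The gene has a near-identical copy, MAP1LC3B2, listed at 204, 227 and 215 counts in Control and 132, 137 and 147 in OX-LDL. MAP1LC3B itself had 5309, 11837 and 5462 counts in Control. A division of counts between them was not tested.
GABARAP was the most abundant of the family. It was at 25.0, 29.1 and 26.6 FPKM in Control and at 20.8, 22.4 and 20.7 FPKM in OX-LDL. All OX-LDL libraries were below all Control libraries, yet the difference of -0.30 (SE 0.08) just missed the threshold (edgeR adjusted p = 0.0512), and DESeq2 placed it below, at 0.0235. Of the 15 alternative analyses, 4 called GABARAP, and leaving out 1 library gave an edgeR adjusted p of up to 0.164. A same-strand gene that shares exons with GABARAP was listed at 9.77 FPKM in OX-LDL replicate 2 and at 0 counts in the other 5 libraries. GABARAPL1 and GABARAPL2, close relatives of GABARAP, were at 6.60 ± 1.69 and 14.6 ± 0.52 FPKM in Control and at 6.61 ± 0.09 and 15.1 ± 0.85 FPKM in OX-LDL.
GABARAP and its relatives made up 66.0 to 79.9% of the summed ATG8 FPKM in Control and 68.4 to 76.3% in OX-LDL, ranges that overlap.

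Among the receptors, SQSTM1 fell and the other 5 were not called. SQSTM1 (chr5:179806398-179838078) encodes p62, which links ubiquitinated cargo to LC3. It was at 93.5, 130 and 127 FPKM in Control and at 71.3, 69.7 and 72.0 FPKM in OX-LDL. The OX-LDL libraries lay close together and below every Control library. The means were 117 ± 20.5 and 71.0 ± 1.17 FPKM (SD, n = 3), a 1.61-fold fall (log2 fold change -0.69, SE 0.12, edgeR adjusted p = 0.0141). The call was lost when Control replicate 2 was dropped, and likewise for OX-LDL library 1 or 3, with an adjusted p of up to 0.0575, while the log2 fold change stayed between -0.82 and -0.61.
MGAT4B, a neighbour on the other strand that overlaps exons of SQSTM1, was at 23.9 FPKM in Control and 17.2 in OX-LDL, and its part in the SQSTM1 value was not tested. SQSTM1 took 62.7 to 71.8% of the summed FPKM of the 6 receptors in Control and 56.0 to 56.8% in OX-LDL. The sum itself, most of it SQSTM1, was 149 to 196 FPKM in Control and 124 to 128 FPKM in OX-LDL, without overlap.

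NBR1, a receptor related to p62, was higher in each OX-LDL library: 9.26, 9.86 and 8.95 FPKM in Control and 10.6, 10.5 and 10.4 FPKM in OX-LDL. The groups did not overlap, but the difference of 0.20 (SE 0.07) did not pass the test (edgeR adjusted p = 0.0922). OPTN (optineurin) and CALCOCO2 (NDP52), which bind ubiquitin on damaged mitochondria and bacteria, overlapped between groups. OPTN was at 19.3 ± 0.68 FPKM in Control and 20.1 ± 0.94 in OX-LDL, and CALCOCO2 at 6.65 ± 1.15 and 6.31 ± 1.33 FPKM.
FUNDC1, a receptor in the outer mitochondrial membrane, was at 9.96, 18.9 and 8.23 FPKM in Control and at 11.6, 10.9 and 11.2 FPKM in OX-LDL. Its Control replicate 2 was again high, as for MAP1LC3B. Without that library the log2 fold change of FUNDC1 was 0.33 instead of -0.10.
PINK1, the kinase that marks damaged mitochondria, was at 9.93, 11.4 and 7.00 FPKM in Control and at 6.41, 7.76 and 5.85 FPKM in OX-LDL. Control replicate 3 lay inside the OX-LDL range. The difference of -0.47 (SE 0.19) was not called (edgeR adjusted p = 0.156), but without Control replicate 3 it was (0.0466). That was the only call of PINK1 among the 15 alternative analyses, and leaving out another library gave an edgeR adjusted p of up to 0.378. An antisense gene, PINK1-AS, was at 8.26 FPKM in Control and 7.40 in OX-LDL over the same exons.

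The 8 lysosomal genes held the largest changes in both directions. CTSL (chr9:87726109-87731393), the cysteine protease cathepsin L, was at 35.6, 35.2 and 40.6 FPKM in Control and at 63.1, 53.8 and 61.4 FPKM in OX-LDL. The groups did not overlap, and the rise was 1.63-fold (log2 fold change 0.71, SE 0.10, edgeR adjusted p = 0.00657). Of the 8 called genes, it was the only 1 called in each of the 15 alternative analyses.
LAMP2 (chrX:120427827-120469365), a membrane glycoprotein needed for fusion and for chaperone-mediated autophagy, also rose. It was at 63.6, 63.1 and 68.6 FPKM in Control and at 80.2, 87.7 and 84.7 FPKM in OX-LDL, without overlap (0.40, SE 0.07, adjusted p = 0.0134). Its call was lost without Control replicate 2 or without OX-LDL replicate 3, at an adjusted p of up to 0.0543. LAMP1, its close relative, was at 60.4 ± 6.4 FPKM in Control and 60.7 ± 8.96 in OX-LDL. The ratio of LAMP2 to LAMP1, which rests on the same LAMP2 values, was 1.02 to 1.15 in Control and 1.24 to 1.68 in OX-LDL.

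MCOLN1 (chr19:7522624-7534009), the calcium channel mucolipin 1 of the lysosomal membrane, showed the largest fall. It was at 2.60, 3.27 and 2.23 FPKM in Control and at 1.48, 1.59 and 1.22 FPKM in OX-LDL, all below the lowest Control library. The fall was 1.84-fold (log2 fold change -0.88, SE 0.18, edgeR adjusted p = 0.0241). It was not called in the fits that dropped Control library 1 or 2, or OX-LDL library 1 or 3, with an adjusted p of up to 0.0838. PNPLA6, a lysophospholipase gene that shares exons with MCOLN1 on the same strand, was at 7.56 FPKM in Control and 4.25 in OX-LDL, and counts from the shared exons cannot be told apart here.
CTSD was lower in every OX-LDL library, at 275, 342 and 341 FPKM in Control and 218, 190 and 269 FPKM in OX-LDL. Its means were 319 ± 38.6 and 226 ± 40.3 FPKM, and the difference of -0.47 (SE 0.14) missed the threshold of edgeR (adjusted p = 0.0751), while DESeq2 gave 0.0258 and the fit without OX-LDL replicate 3 gave 0.0467. These 2 were the only calls of CTSD among the 15 alternative analyses, and leaving out another library gave an edgeR adjusted p of up to 0.198. HEXA, the alpha subunit of beta-hexosaminidase, was at 10.3, 11.5 and 11.9 FPKM in Control and at 7.68, 9.62 and 7.82 FPKM in OX-LDL. It too had no overlap and was not called by edgeR (-0.39, SE 0.11, adjusted p = 0.0580), with 0.0205 in DESeq2 and 0.0183 without OX-LDL replicate 2. Of the 15 alternative analyses, 3 called HEXA, and leaving out another library gave an edgeR adjusted p of up to 0.177. For both CTSD and HEXA, genes on either strand overlap their exons at lower levels. The part of these genes in the CTSD and HEXA values was not tested.
CTSA, the serine carboxypeptidase cathepsin A, was at 48.2 ± 1.44 FPKM in Control and 46.3 ± 1.23 in OX-LDL. CTSB, the cysteine protease cathepsin B, was at 11.4, 11.2 and 21.4 FPKM in Control and at 29.6, 13.4 and 26.5 FPKM in OX-LDL. The CTSB groups overlapped and the difference of 0.69 had an SE of 0.36 (edgeR adjusted p = 0.253).
The ratio of CTSD to CTSL mRNA was 7.72 to 9.72 in Control and 3.46 to 4.38 in OX-LDL. It had to separate, because CTSL was higher and CTSD lower in every OX-LDL library. CTSD took 54.8 to 59.6% of the summed FPKM of the 8 genes in Control and 40.5 to 49.1% in OX-LDL, whereas the sum itself overlapped, at 501 to 601 and 468 to 549 FPKM.

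**Figure D3:**
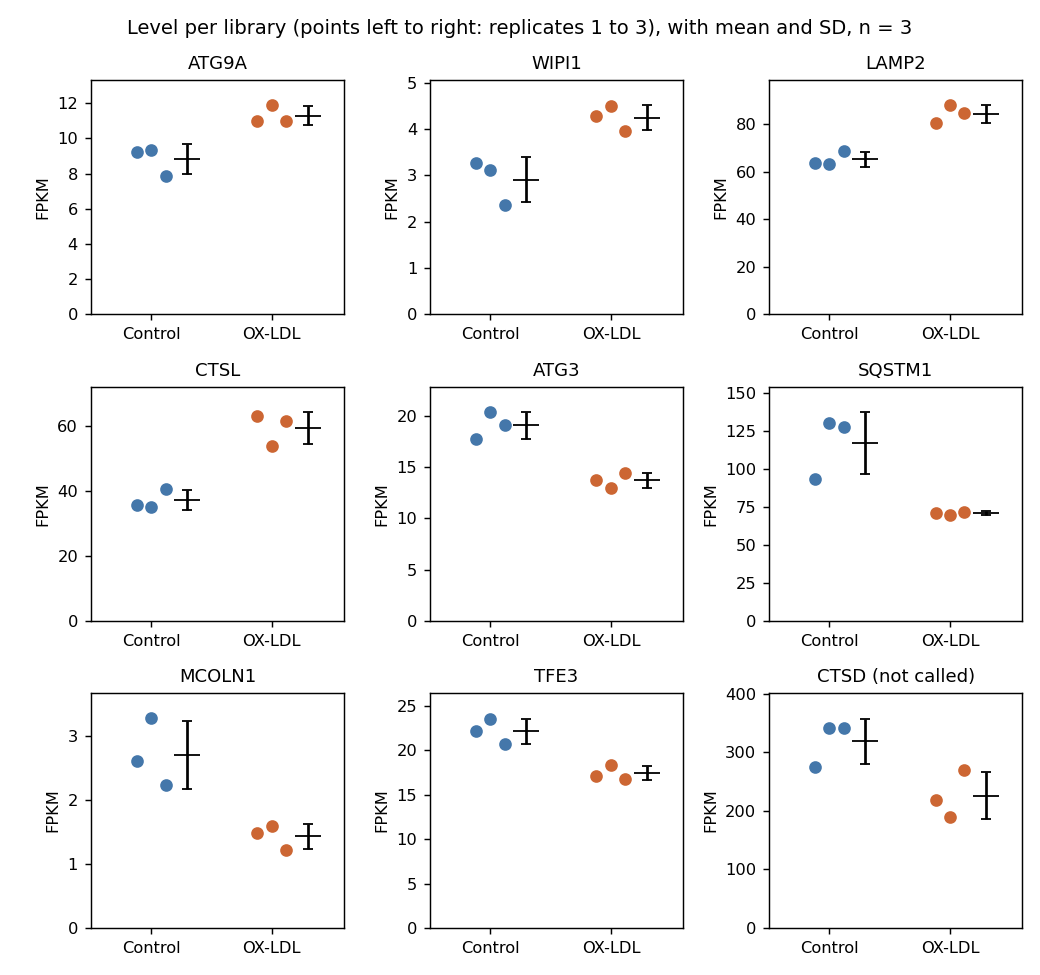
Level of the 8 called genes and of CTSD in each library. The vertical axis of each panel is FPKM from 0, points are the 3 libraries of each group in replicate order, and the black mark and bars give the mean and SD (n = 3). In each of the 9 panels the points of the groups do not overlap, with ATG9A, WIPI1, LAMP2 and CTSL higher in OX-LDL and the others lower.

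Of the 2 transcription factors of lysosomal genes, TFE3 fell and TFEB was not called. TFE3 (chrX:49028726-49043410) was at 22.2, 23.6 and 20.7 FPKM in Control and at 17.1, 18.4 and 16.8 FPKM in OX-LDL. It fell by 0.31 on the log2 scale (SE 0.08, edgeR adjusted p = 0.0393), a call lost on dropping the same 4 libraries as for MCOLN1 (adjusted p up to 0.137). TFEB was at 0.83, 0.90 and 0.91 FPKM in Control and at 0.61, 0.78 and 0.49 FPKM in OX-LDL. Its groups did not overlap either, and its difference of -0.45 (SE 0.20) was not called (adjusted p = 0.192).
In all, the groups did not overlap in 14 of the 34 genes (41.2%), 5 higher and 9 lower, beside 37.2% of all genes tested.

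A wider list of 142 symbols of other autophagy and lysosome genes was read in the same fit, of which 141 were in the table under the symbol searched and 134 were tested. In these, 12 rose and 27 fell, 29.1% of those tested beside 15.3% of all genes. The 141 genes had a median level of 9.04 FPKM in Control, and these shares were not matched for level either. By list, the called share was 18.2% for initiation, 27.3% for conjugation and membrane supply, 33.3% for receptors and 30.8% for fusion. It was 19.4% for hydrolases, 45% for membrane and transport, 17.6% for the V-ATPase and 54.5% for the TFE regulators. The shares for initiation, hydrolases and the V-ATPase lay near that of all genes. The median log2 fold change of the 134 was -0.09. The range ran from -2.03, among membrane and transport genes, to 1.88, and 7 of the genes differed by more than 2-fold. When each library was left out in turn, 13 of the 39 remained called in all 6 fits, 4 higher and 9 lower. Among the 13 were BNIP3, STX17, RRAGA, ATG101, BCL2L13, EPG5, CTNS, TPCN1, IGF2R, ATP6V1A, ATP6V1C1 and MITF. The other genes named from these lists each lost their call without at least 1 library.

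**Figure D4:**
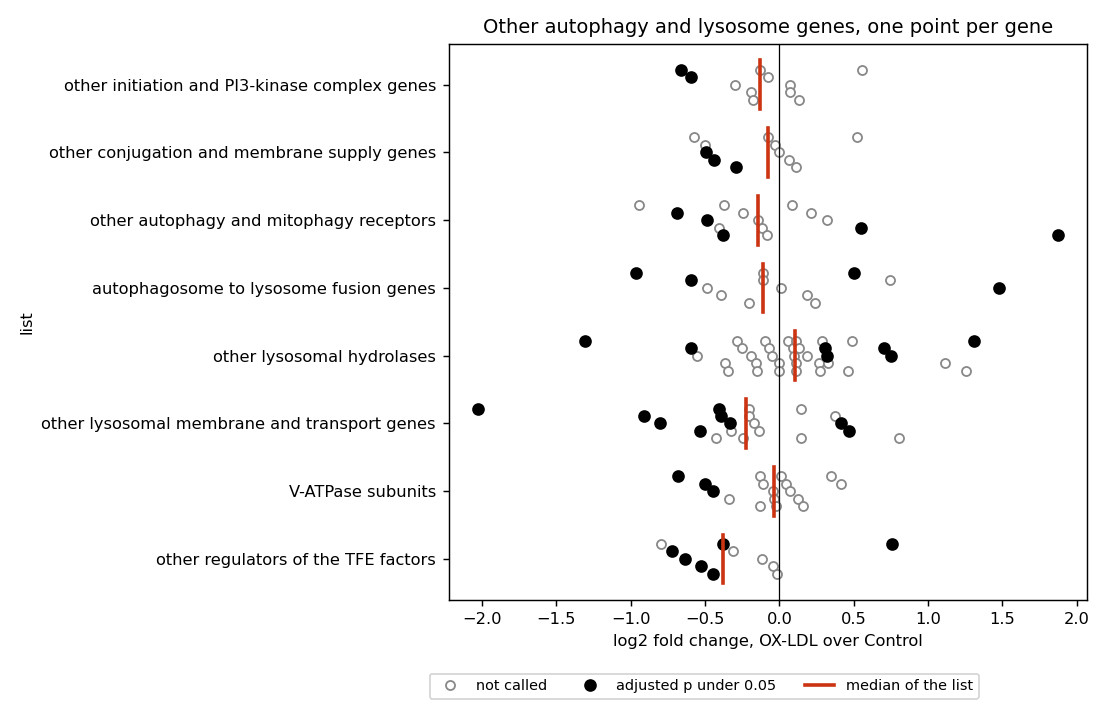
Change of the 134 other tested genes in 8 lists. The horizontal axis is the log2 fold change of OX-LDL over Control, each point is a gene, filled points have an adjusted p under 0.05 in edgeR, and the vertical bar is the median of the list. BNIP3 and STX17 are the rightmost filled points of their lists, and the list of TFE regulators has its median at -0.38.

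Upstream of the phagophore, 2 of 11 other initiation genes fell and none rose. ATG101, a partner of ATG13 in the ULK1 complex, went from 13.5 ± 0.99 to 8.35 ± 0.63 FPKM (log2 fold change -0.66, edgeR adjusted p = 0.00726). UVRAG, a beclin 1 partner, went from 3.45 ± 0.28 to 2.23 ± 0.13 FPKM (-0.60, adjusted p = 0.0125). In conjugation and membrane supply, 3 of 11 fell and none rose: WDR45 (-0.50), ATG4B (-0.29) and ATG2B (-0.44). WDR45 shares exons with PRAF2 on the same strand.

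The largest rise in the wider list was that of a mitophagy receptor. BNIP3, in the outer mitochondrial membrane, was at 17.6, 14.8 and 15.6 FPKM in Control and at 55.2, 55.8 and 61.4 FPKM in OX-LDL (log2 fold change 1.88, SE 0.10, edgeR adjusted p = 0.000365). Its relative BNIP3L (NIX) rose from 29.8 ± 2.44 to 42.6 ± 3.65 FPKM (0.55, adjusted p = 0.0163). Among the mitophagy members above, neither FUNDC1 nor PINK1 was called.
Of the 15 tested genes on this receptor list, 2 rose and 3 fell. BCL2L13, another outer mitochondrial membrane receptor, fell by 0.48 on the log2 scale, and SEC62 and RTN3, receptors for the endoplasmic reticulum, fell by 0.38 and 0.69. RTN3 is named here after its values were seen.

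Of 13 fusion genes, 2 rose and 2 fell. STX17, the SNARE of the autophagosome, rose from 1.68, 1.87 and 2.04 FPKM to 4.99, 4.74 and 5.51 FPKM (log2 fold change 1.48, edgeR adjusted p = 0.00116). Its partner VAMP8 on the lysosome rose by 0.50, and SNAP29, the SNARE that joins them, fell by 0.59 on the log2 scale. EPG5, a tether for the same step, fell from 13.96 ± 1.53 to 6.99 ± 0.93 FPKM (-0.97, adjusted p = 0.00556). PI4KA, on the other strand and overlapping exons of SNAP29, was at 11.3 FPKM in Control and 7.52 in OX-LDL. Its part in the SNAP29 value was not tested.

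Among 36 other lysosomal hydrolases, 5 rose and 2 fell. CTSO (cathepsin O) rose by 1.31 on the log2 scale, from 1.66 to 4.04 FPKM, and ARSB (arylsulfatase B) by 0.70. IDUA (alpha-L-iduronidase), at 0.493 FPKM in Control and 0.195 in OX-LDL, fell by 1.31 on the log2 scale.
Of 20 membrane and transport genes, 2 rose and 7 fell. CTNS, the cystine exporter, went from 6.84, 7.80 and 6.41 FPKM to 3.68, 3.62 and 3.61 FPKM (-0.91, edgeR adjusted p = 0.00409). SLC17A5, the sialic acid exporter, fell by 0.80, the channel TPCN1 by 0.54 and IGF2R, the mannose 6-phosphate receptor that carries hydrolases to the lysosome, by 0.41 on the log2 scale. IQCD, on the other strand and overlapping exons of TPCN1, was at 7.04 FPKM in Control and 3.85 in OX-LDL. Its part in the TPCN1 value was not tested.

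Of 17 tested subunits of the V-ATPase, the pump that acidifies the lysosome, 3 of the cytosolic V1 sector fell and none rose. These were ATP6V1C1 (-0.68), ATP6V1F (-0.50) and ATP6V1A (-0.45), 17.6% of the tested subunits beside 15.3% of all genes. Among 11 regulators of the TFE factors, 5 fell and 1 rose. RRAGA, a Rag GTPase that recruits mTORC1 to the lysosome, rose from 12.4, 13.2 and 13.5 FPKM to 20.5, 22.8 and 21.3 FPKM (log2 fold change 0.75, edgeR adjusted p = 0.00422).
Its dimer partner RRAGC fell by 0.45, and MITF, the relative of TFEB and TFE3, fell by 0.53 on the log2 scale. FNIP2 fell by 0.72. FLCN and FNIP1, named after their values were seen, fell by 0.64 and 0.38 on the log2 scale. FLCN encodes folliculin, and FNIP1 and FNIP2 its partners.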

How the data were processed

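Poly(A) RNA of HK-2 cells was sequenced as paired reads. The submitters' processing notes name cutadapt 1.9, HISAT2 2.0.4, StringTie 1.3.4d, edgeR, DESeq2 and the build GRCh38. The authors deposited 1 table of whole-number estimated counts, not scaled for library size, and FPKM scaled per kilobase and library, in which a count of 0 is listed at 0.0001, apart from 15 values. The kit keeps strand, but whether the counting used it is not given in the sources used here, and overlapping genes may share counts. Gene coordinates are those of the table, and those of the motifs are from the RefSeq windows. Exon overlaps were read from GENCODE release 29, in which 81.3% of the shared gene identifiers had the same coordinates.

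edgeR 4.0.16 (R 4.3.3, TMM, glmQLFit, glmQLFTest, group as the only term) was run on the counts of genes averaging 0.1 FPKM or more, with Benjamini-Hochberg adjustment over all of them. Fits were checked on simulated data, in which edgeR missed most of the changes put in. DESeq2 found more of them there but made more false calls. A gene that was not called may therefore still differ. DESeq2 1.42.0, limma 3.58.1 and leaving out each library were alternatives. The members and lists were chosen with earlier results of these data known. All members are named, and of each wider list at most 4 called genes with the smallest p, except items not reported here. Levels are mean ± SD. No protein sequences were used here.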

Additional observations from a re-analysis of the deposited data

How the results depend on the processing

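DESeq2 called 7 of the genes lower instead of 4, and 22 of the wider list higher instead of 12. With no minimum level 2 members were higher. Without 1 library, the counts were 619 to 1473 higher and 537 to 1470 lower over all genes, 1 to 2 higher and 0 to 5 lower among members, and 4 to 10 higher and 10 to 26 lower in the wider list. Libraries with the same number did not deviate together (correlations -0.04, -0.003 and 0.04). The labels do not say whether libraries of the same number were prepared together, and these correlations cannot settle it. A replicate block left 854 genes higher and 782 lower, 2 members higher and 6 of the wider list higher. Uncalled members changed sign: ATG2A (-0.012 and -0.009) and WIPI2 (-0.002 and -0.002) in limma with a pseudocount of 0.1 and 1, and without 1 library the log2 fold changes ran from -0.13 to 0.49 (MAP1LC3B), -0.037 to 0.15 (LAMP1), -0.16 to 0.24 (ATG16L1), -0.11 to 0.10 (ATG2A), -0.16 to 0.18 (GABARAPL1), -0.20 to 0.11 (CALCOCO2), -0.32 to 0.33 (FUNDC1), -0.12 to 0.045 (ATG7), -0.15 to 0.054 (ULK1) and -0.49 to 0.13 (ATG14). The causes were not tested. The minimum level left ULK2 out of the test, and MAP1LC3A was not detected at this depth.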
